A study of Mus musculus with 15 samples.

Results

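MiRNA sequencing of the left ventricle (LV) was compared between 10 mice without a functional AGAT gene and 5 wild-type (wt) mice, each mouse giving its own library, so that all 15 libraries of the series entered the comparison. The 10 knockout mice were 5 untreated AGAT-/- mice and 5 AGAT-/- mice that received homoarginine from osmotic mini pumps for 4 weeks (AGAT-/-hArg), and here they were first pooled and then set against wt mice group by group. The comparison asks which differences from wt mice hold in both knockout groups, whether or not homoarginine was given. All mice were littermates from heterozygous breeding on a C57BL/6J background, and the knockout removes the enzyme from the whole body. The sources used here give neither the age nor the sex of the sequenced mice, and do not say whether wt and untreated AGAT-/- mice carried a pump. The labels place wt and AGAT-/- libraries on sequencing lane 8 and AGAT-/-hArg libraries on lane 2, so homoarginine and lane cannot be told apart. The test of AGAT-/- against wt mice lies within lane 8, and that of AGAT-/-hArg against wt mice lies across both lanes.

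AGAT (arginine:glycine amidinotransferase) forms guanidinoacetate, from which creatine is made, and also homoarginine. Creatine and its phosphorylated form buffer the energy supply of muscle, and mice without AGAT lack both creatine and homoarginine, of which the supplement supplies homoarginine only. A mature miRNA of about the length of the sequences below guides silencing complexes to messenger RNAs, mainly by pairing of its seed, and a precursor can give a mature miRNA from its 5p arm, its 3p arm or both. Heart muscle has its own set of miRNAs, the myomiRs, several of which are encoded in introns of myosin genes, mir-499 in Myh7b among them.

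Of 1836 rows in the table of counts, each 1 arm of a precursor, 647 had more than 10 reads summed over the 15 libraries and were tested. Values are CPM, reads scaled for depth and composition by edgeR's TMM method. The test was the quasi-likelihood test of edgeR, and a false discovery rate (FDR) of at most 0.05 was taken as passing. With libraries of 365634 to 570492 reads, 3 reads corresponded to between 4.93 and 8.21 CPM, a floor that covers counting error only. In each library, 71.5% to 73.7% of the reads came from the 3 leading miRNAs. As to the tissue, the 5p rows of mir-133a-1, mir-133a-2, mir-208a and mir-1a-1 and both rows of mir-499 were read in each group, but the 3p rows of mir-1a-1, mir-1a-2, mir-133a-1, mir-133a-2, mir-208a and mir-208b, which hold the main mature miRNAs of heart muscle, are listed at 0 in all libraries. Gatm, the gene of AGAT, gives no miRNA, so these counts hold no check of the genotype.

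Of the 647 miRNAs tested, 15 passed the FDR in the pooled comparison, which is 2.32% of them, with 11 higher (1.70%) and 4 lower (0.618%) in AGAT-deficient mice. For 9 of the tested miRNAs (1.39%), 5 higher (0.773%) and 4 lower (0.618%), all 10 AGAT-deficient mice lay on 1 side of all wt mice, and 8 of these 9 are among the 15. An unadjusted p below 0.05 was seen for 78, and the median log2 fold change of all tested miRNAs was 0.02. Tested group by group within 1 fit of all 3 groups, 15 miRNAs differed between AGAT-/- and wt mice (2.32%). Between AGAT-/-hArg and wt mice, 16 differed (2.47%). Both tests were passed, with the same sign, by 9 miRNAs or 1.39% of those tested, 6 as higher (0.927%) and 3 as lower (0.464%), and all 9 belong to the 15 of the pooled comparison. As both tests use the same 5 wt mice and 1 estimate of the spread, they are not independent. A wt library that deviates moves both. In fits of only the 2 groups compared, mir-499-5p and mir-125b-2-3p of the 9 did not pass in AGAT-/- mice. The sequences of the 9, with mir-881-3p from the same cluster as 3 of them, are printed below because the results turn on them. They are the mature sequences of RefSeq (GRCm38.p6), 5′ to 3′, with the seed (bases 2 to 8) in capitals, and 484 of the 647 miRNAs tested matched an entry. No pair among the 15 shares a seed.
mir-5119-3p: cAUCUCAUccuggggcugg
mir-215-5p: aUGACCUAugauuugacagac
mir-1983-3p: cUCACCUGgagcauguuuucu
mir-499-5p: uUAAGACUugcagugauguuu
mir-31-5p: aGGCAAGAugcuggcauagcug
mir-125b-2-3p: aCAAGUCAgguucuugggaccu
mir-470-5p: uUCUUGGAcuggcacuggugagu
mir-871-3p: uGACUGGCaccauucuggauaau
mir-871-5p: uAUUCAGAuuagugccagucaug
mir-881-3p: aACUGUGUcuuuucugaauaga

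Among the miRNAs lower in both knockout groups, mir-5119-3p had the largest change of the 15. Its precursor lies in an intron of Cdk12, the gene of a transcriptional cyclin-dependent kinase (chr11:98262606-98262662, plus strand, GRCm38). The wt mice were at 219, 152, 255, 117 and 695 CPM, the AGAT-/- mice at 9.64, 5.21, 30.1, 2.08 and 4.63 CPM, and the AGAT-/-hArg mice at 37.4, 6.57, 4.71, 2.56 and 7.97 CPM. All 10 AGAT-deficient mice thus lay below the lowest wt mouse, while within each group 1 mouse stood apart from the other 4. The mean fell from 288 ± 234 CPM in wt (SD, n = 5) to 11.1 ± 12.3 CPM in AGAT-deficient mice (SD, n = 10), a log2 fold change of -4.70 (95% interval -5.57 to -3.83, FDR = 3.39e-08, edgeR). The changes in the separate groups were -4.90 in AGAT-/- and -4.54 in AGAT-/-hArg mice. The knockout libraries held between 1 and 18 reads of mir-5119-3p and the wt libraries between 46 and 282. Leaving out each mouse in turn gave log2 fold changes from -5.17 to -4.07, all past the FDR. The 5p row of mir-5119 is listed at 0 throughout.

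Mir-215-5p, which shares its seed with mir-192-5p of epithelial tissues, was lower by a smaller factor but with little spread. It was at 2783, 2647, 2690, 2846 and 2612 CPM in wt mice, at 1873, 1660, 1737, 1621 and 1506 CPM in AGAT-/- mice, and at 1596, 2024, 1977, 1708 and 1589 CPM in AGAT-/-hArg mice. No knockout mouse came near the wt range, and wt mice were on average 1.57-fold higher (2716 ± 96.9 against 1729 ± 174 CPM, SD, n = 5 and 10). The log2 fold change was -0.65 (95% interval -0.81 to -0.49, FDR = 2.82e-06, edgeR), with -0.69 in AGAT-/- and -0.61 in AGAT-/-hArg mice. The precursor (chr1:185313581-185313692, plus strand) lies in an exon of the antisense RNA gene 2010103J01Rik and, on the opposite strand, in an intron of Iars2, which encodes the mitochondrial isoleucyl-tRNA synthetase. The 3p row of mir-215 rests on 91 reads and had a log2 fold change of -0.95 (FDR = 0.220), and mir-194-1-3p, whose precursor starts 196 bases from that of mir-215, had -1.27 on 22 reads (FDR = 0.365). These 2 did not pass. The mature sequence of mir-192-5p differs from mir-215-5p by 3 edits, and its row is listed at 0, so how reads that match both were assigned cannot be seen in the counts.

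Mir-1983-3p (chr13:21896918-21897049, minus strand, within no other gene of GENCODE M21) was the other miRNA lower in both groups. The wt mice were at 398, 230, 381, 342 and 481 CPM, the AGAT-/- mice at 147, 172, 233, 248 and 137 CPM, and the AGAT-/-hArg mice at 179, 159, 137, 105 and 146 CPM. The lowest wt mouse lay among the AGAT-/- mice, and all 5 AGAT-/-hArg mice were below the wt range. The log2 fold change was -1.14 (95% interval -1.48 to -0.80, FDR = 8.40e-05, edgeR), with -0.97 in AGAT-/- and -1.33 in AGAT-/-hArg mice, so that the mean was 2.20-fold higher in wt mice.

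**Figure D1:**
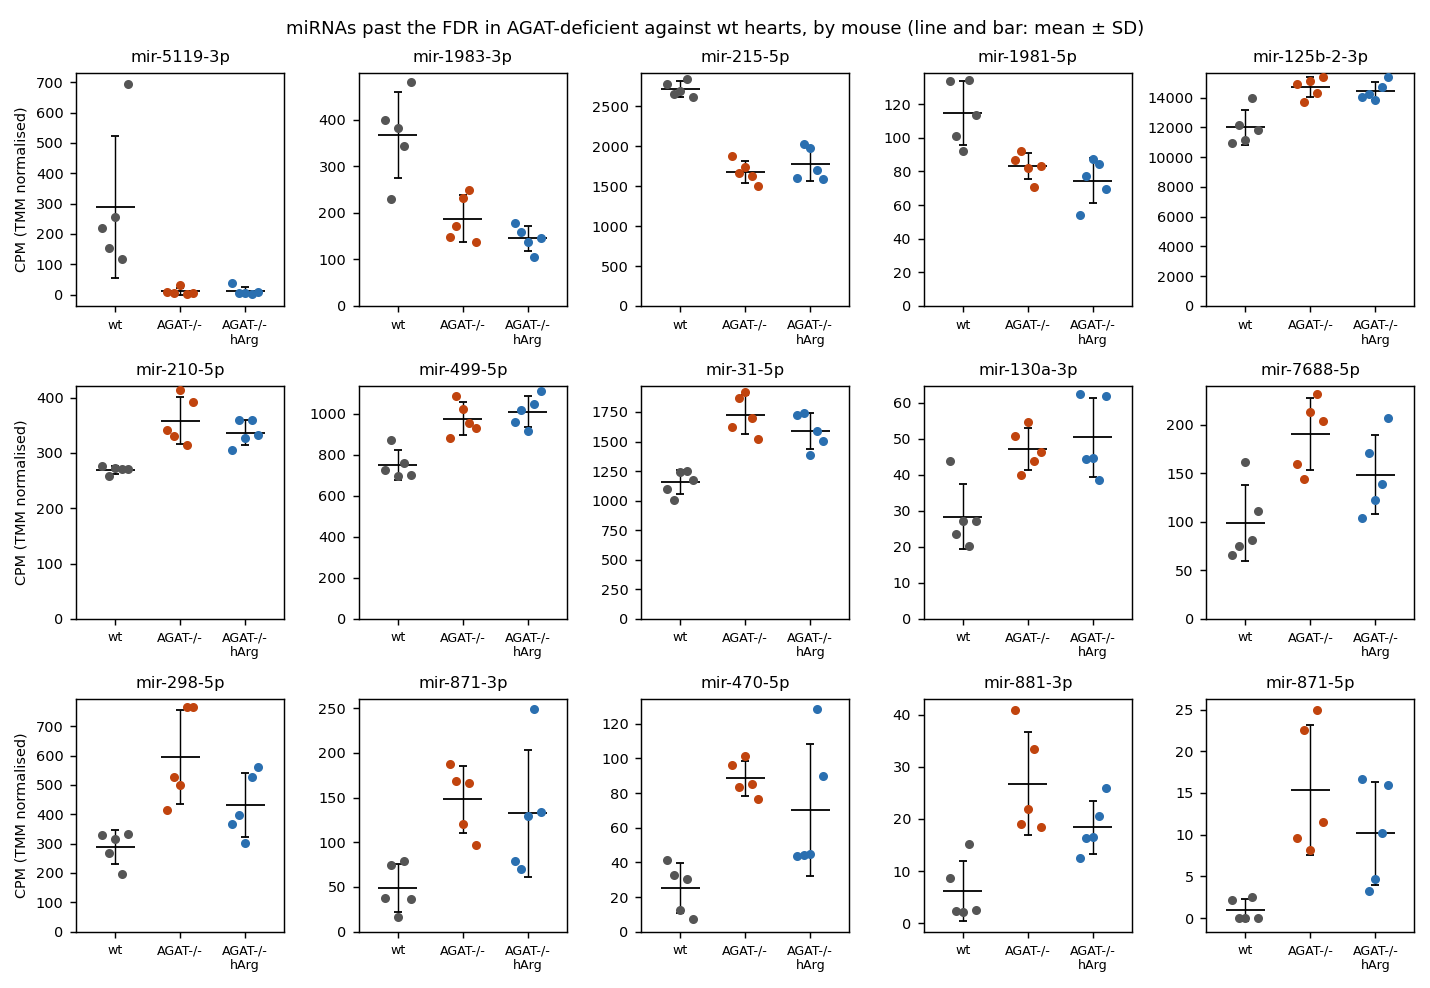
CPM (TMM normalised) of the 15 miRNAs past the FDR in AGAT-deficient against wt mice, 1 panel per miRNA with its own linear axis; each point is a mouse (wt, AGAT-/- and AGAT-/-hArg, 5 each), the line and bar are the mean ± SD. For 8 of the 15 miRNAs all 10 knockout mice lie on the same side of all wt mice, mir-5119-3p, mir-215-5p, mir-31-5p and mir-499-5p among them.

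Among the miRNAs higher in both groups, mir-499-5p is the one of heart muscle itself, where it is made from an intron of Myh7b, a slow myosin heavy chain gene (chr2:155622880-155622958, plus strand). It was at 727, 871, 697, 760 and 702 CPM in wt mice, at 882, 1087, 1023, 958 and 931 CPM in AGAT-/- mice, and at 961, 1020, 916, 1049 and 1114 CPM in AGAT-/-hArg mice. The groups did not overlap, although the highest wt mouse and the lowest AGAT-/- mouse were close together. The increase was 1.32-fold (log2 0.40, 95% interval 0.23 to 0.58, FDR = 0.0054, edgeR), with a log2 fold change of 0.38 in AGAT-/- mice (FDR = 0.0251) and 0.43 in AGAT-/-hArg mice (FDR = 0.00808). In AGAT-/- mice the call was lost when wt mouse 1, 3, 4 or 5 or AGAT-/- mouse 7 was left out (FDR up to 0.122). The opposite arm, mir-499-3p, changed by 0.10 on the log2 scale and did not pass (FDR = 0.951).

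The increase of mir-31-5p was seen in each mouse. This miRNA, which is processed from an exon of the long noncoding RNA AL805899.1 (chr4:88910557-88910662, minus strand), was higher in each of the 10 knockout mice than in all wt mice. Values were 1097, 1007, 1246, 1247 and 1178 CPM in wt mice, 1622, 1868, 1923, 1700 and 1522 CPM in AGAT-/- mice, and 1727, 1738, 1384, 1590 and 1507 CPM in AGAT-/-hArg mice. The increase was 1.44-fold (log2 0.52, 95% interval 0.34 to 0.70, FDR = 5.07e-04, edgeR), from 1155 ± 103 to 1658 ± 167 CPM (SD, n = 5 and 10). It was 0.58 on the log2 scale in AGAT-/- and 0.46 in AGAT-/-hArg mice. The 3p row of mir-31, with 259 reads in all, had a similar log2 fold change of 0.53 but did not pass (FDR = 0.432).

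Of the 15 miRNAs, mir-125b-2-3p was the most abundant and had the smallest change. It is the 3p arm of a precursor in an intron of the noncoding Mir99ahg gene (chr16:77646273-77646343, plus strand). It was at 10954, 12151, 11153, 13948 and 11829 CPM in wt mice, at 14892, 13728, 15091, 14305 and 15410 CPM in AGAT-/- mice, and at 14017, 14276, 13834, 14714 and 15358 CPM in AGAT-/-hArg mice. Of the knockout mice, 8 lay above all wt mice and the other 2 were below wt mouse 4 alone. The log2 fold change was 0.28 (95% interval 0.15 to 0.40, FDR = 0.00823, edgeR), with 0.29 in AGAT-/- and 0.27 in AGAT-/-hArg mice. The separate calls were lost without wt mouse 3 or AGAT-/- mouse 10 in AGAT-/- mice, and without wt mouse 1, 2 or 3 or AGAT-/-hArg mouse 15 in AGAT-/-hArg mice (FDR up to 0.0965 and 0.0931). The mir-125b-2-5p row is listed at 0, and mir-99a-3p of the same host gene changed by 0.06 (FDR = 0.915).

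**Figure D2:**
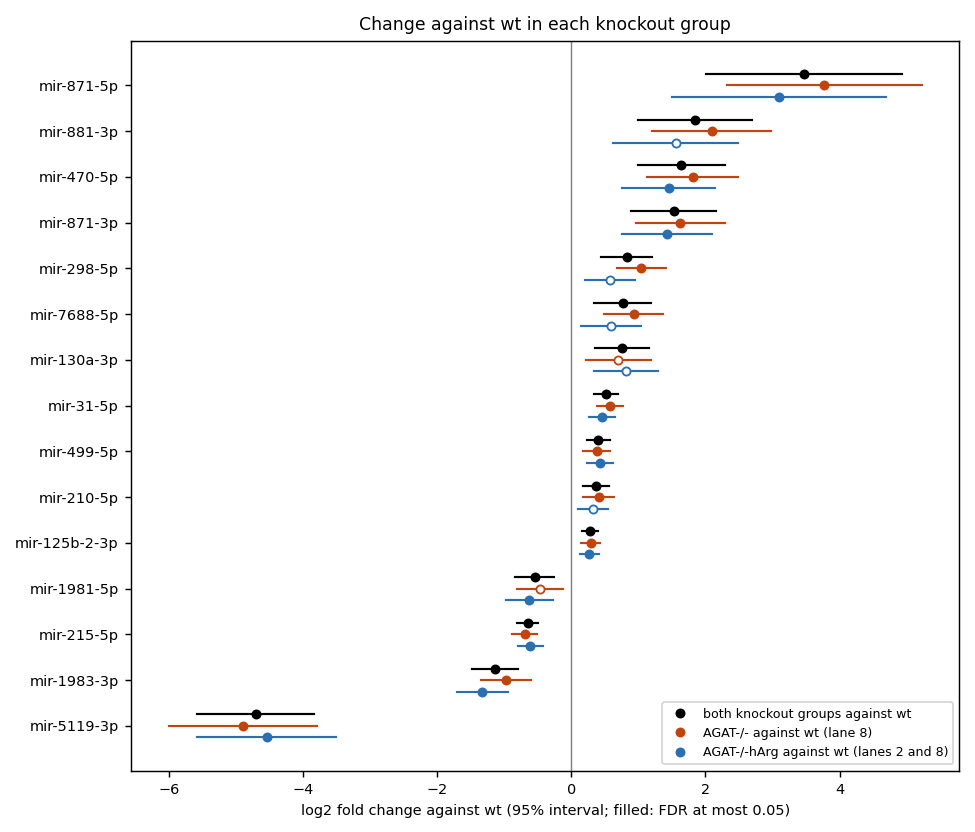
Log2 fold change against wt mice (x axis) of the 15 miRNAs (y axis) for both knockout groups pooled, for AGAT-/- mice (lane 8, as wt) and for AGAT-/-hArg mice (lane 2); bars are 95% intervals and filled points have an FDR of at most 0.05. The AGAT-/- and AGAT-/-hArg changes have the same sign for each miRNA, and 9 of the 15 are filled in both.

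The remaining 3 miRNAs that rose in both groups come from a cluster on chromosome X (chrX:66776757-66839125), in which 18 precursors lie within 62.4 kb. MiRNAs of this cluster are known for their expression in testis. Mir-470-5p was at 41.6, 32.8, 12.6, 30.4 and 7.39 CPM in wt mice, at 96.4, 83.3, 101, 85.4 and 76.4 CPM in AGAT-/- mice, and at 43.7, 44.4, 44.7, 128 and 89.7 CPM in AGAT-/-hArg mice. Every knockout mouse was above every wt mouse, but 3 of the AGAT-/-hArg mice lay just above the highest wt mouse. The increase was 3.12-fold (log2 1.64, 95% interval 0.99 to 2.29, FDR = 0.00288, edgeR), with log2 values of 1.81 in AGAT-/- and 1.45 in AGAT-/-hArg mice.

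Mir-871-3p, from a precursor 3447 bases away, was at 37.2, 75.0, 16.7, 78.6 and 37.0 CPM in wt mice, at 188, 168, 120, 167 and 97.3 CPM in AGAT-/- mice, and at 79.1, 70.6, 129, 249 and 134 CPM in AGAT-/-hArg mice. All AGAT-/- mice were above the wt range, and 1 AGAT-/-hArg mouse fell into it. The log2 fold change was 1.53 (95% interval 0.90 to 2.15, FDR = 0.00428, edgeR), with 1.62 and 1.42 in the AGAT-/- and AGAT-/-hArg mice. In AGAT-/-hArg mice, the calls of mir-470-5p and mir-871-3p were lost without mouse 14, the highest of its group (FDR = 0.0550 for each). Both miRNAs share the run GACUGGCAC of 9 bases, which holds the whole seed of mir-871-3p but begins at the end of that of mir-470-5p.

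The 5p arm, mir-871-5p, was near the limit of detection. It had 2 reads in all 5 wt libraries together, 37 in the AGAT-/- libraries (3 to 13 per mouse) and 24 in the AGAT-/-hArg libraries (2 to 8 per mouse). Scaled for depth, the ratio of AGAT-deficient to wt reads was 14.8, with a 95% counting interval from 3.94 to 125. That interval pools the reads of all mice and leaves out the spread between them. With mice as the units, mir-871-5p had a log2 fold change of 3.47 (95% interval 2.01 to 4.92, edgeR). Its FDR was 0.00459 in the pooled comparison, 0.00112 in AGAT-/- and 0.0210 in AGAT-/-hArg mice (edgeR), and the last call was lost when wt mouse 2, 3 or 5 or AGAT-/-hArg mouse 11 or 15 was left out. Mir-881-3p of the same cluster rested on 117 reads, and was at 8.76, 2.34, 2.09, 15.2 and 2.46 CPM in wt mice, at 41.0, 19.1, 21.9, 33.3 and 18.5 CPM in AGAT-/- mice, and at 12.5, 16.4, 16.5, 20.5 and 25.9 CPM in AGAT-/-hArg mice. It passed in the pooled comparison (log2 1.84, FDR = 0.00938) and in AGAT-/- mice (2.09, FDR = 0.00308), but not in AGAT-/-hArg mice (1.56, FDR = 0.0626).

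Over all 36 rows of the cluster, tested or not, the summed reads were 252 in wt, 858 in AGAT-/- and 712 in AGAT-/-hArg mice. The sum lay between 50.2 and 160 CPM in wt mice, between 269 and 438 CPM in AGAT-/- mice and between 192 and 508 CPM in AGAT-/-hArg mice, so that no knockout mouse overlapped the wt range. The 4 miRNAs above carry most of these reads. The sum of the other 32 rows was 80 reads in wt, 221 in AGAT-/- and 182 in AGAT-/-hArg mice, with 18.8 to 59.1, 64.9 to 127 and 30.6 to 124 CPM per mouse, where the AGAT-/-hArg mice overlap the wt mice. Only 20 of the 36 rows had enough reads to be tested. Their median log2 fold change was 1.58 in the pooled comparison, where that of all tested miRNAs was 0.02, but rows with so few reads could pass the filter through the knockout mice alone, so this median is a description. The 16 rows that did not pass had 12 to 69 reads each and a lowest FDR of 0.258. The mir-465 precursors give near-identical mature miRNAs, and reads may be split among their rows.

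**Figure D3:**
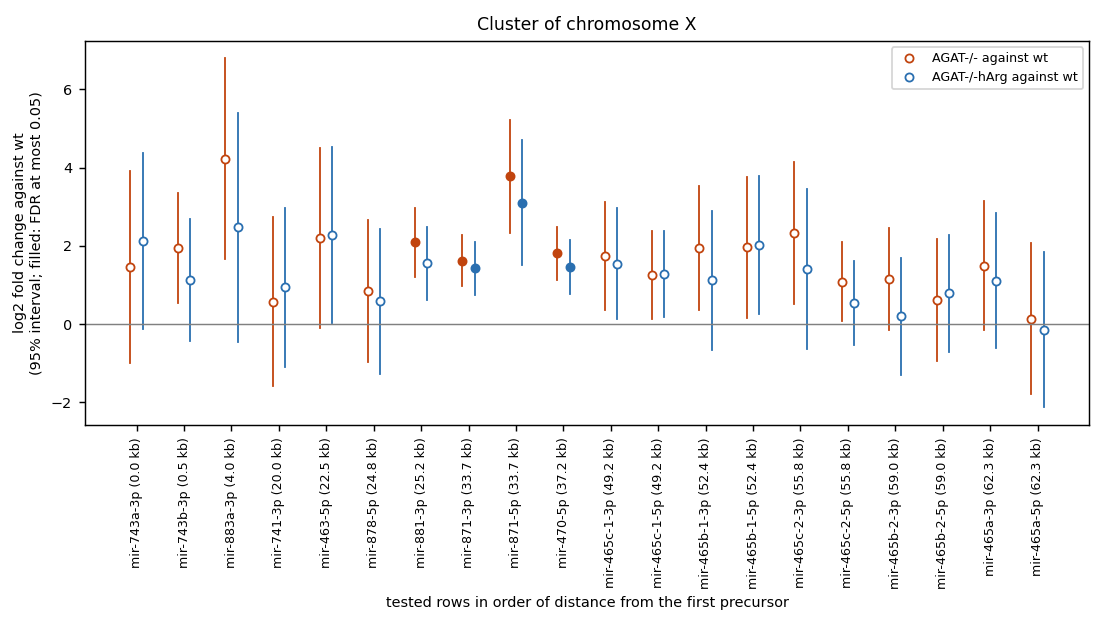
Log2 fold change against wt mice of the 20 tested rows of the chromosome X cluster, in order of the distance of their precursor from the first one (kb), for AGAT-/- and AGAT-/-hArg mice; bars are 95% intervals and filled points have an FDR of at most 0.05. The filled points are those of mir-881-3p, mir-871-3p, mir-871-5p and mir-470-5p near the middle, and most open points lie above 0 with wide intervals.

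The other 5 miRNAs of the pooled comparison passed in 1 of the knockout groups or in neither. In the first of them, mir-298-5p (chr2:174267504-174267585, minus strand, from the imprinted Gnas region), levels were 328, 269, 316, 195 and 333 CPM in wt mice, 415, 528, 501, 765 and 764 CPM in AGAT-/- mice, and 366, 398, 304, 526 and 560 CPM in AGAT-/-hArg mice. The AGAT-/- mice were all above wt mice, and 1 AGAT-/-hArg mouse was within their range. The log2 fold change was 0.83 when pooled (FDR = 0.00938), 1.04 in AGAT-/- mice (FDR = 5.14e-04) and 0.57 in AGAT-/-hArg mice (FDR = 0.0862, edgeR). Its neighbour mir-296, 379 bases away, had 1 read in all libraries.

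Mir-210-5p, from a precursor known to respond to hypoxia (chr7:141221384-141221493, minus strand), was between 258 and 276 CPM in wt mice, between 315 and 413 CPM in AGAT-/- mice and between 306 and 360 CPM in AGAT-/-hArg mice. The groups did not overlap, and the log2 fold change was 0.36 (FDR = 0.0366), with 0.41 in AGAT-/- (FDR = 0.0439) and 0.32 in AGAT-/-hArg mice (FDR = 0.157). The main strand of this precursor in most tissues, mir-210-3p, is listed at 0. Mir-7688-5p (chr10:93433107-93433162, plus strand) was between 65.7 and 161 CPM in wt, 144 and 231 CPM in AGAT-/- and 104 and 207 CPM in AGAT-/-hArg mice. Its log2 fold change was 0.77 (FDR = 0.0430), with 0.93 (FDR = 0.0117) and 0.59 (FDR = 0.198) in the separate groups. In fits without 1 mouse, log2 fold changes ran from 0.34 to 0.40 for mir-210-5p and from 0.65 to 1.02 for mir-7688-5p. Both pooled calls lay close to the FDR limit and were lost in part of these fits. That of mir-210-5p held in 7 of the 15 fits without 1 mouse and was lost without any wt mouse, AGAT-/- mouse 10 or AGAT-/-hArg mouse 12 or 15 (FDR up to 0.116), and its call in AGAT-/- mice held in 3. That of mir-7688-5p held in 5 of 15 and was lost without wt mouse 1, 2, 4 or 5, AGAT-/- mouse 6, 8, 9 or 10 or AGAT-/-hArg mouse 12 or 15 (FDR up to 0.152).

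Mir-1981-5p, from an intron of Marc2 (chr1:184822407-184822488, minus strand), which encodes a mitochondrial amidoxime-reducing enzyme, was lower in all 10 knockout mice than in any wt mouse. It was at 134, 101, 92.1, 134 and 113 CPM in wt mice, and between 70.8 and 92.0 CPM in AGAT-/- and between 54.1 and 87.1 CPM in AGAT-/-hArg mice, so that the highest knockout and the lowest wt mouse nearly met. The log2 fold change was -0.54 (FDR = 0.0366), with -0.62 in AGAT-/-hArg (FDR = 0.0394) and -0.46 in AGAT-/- mice (FDR = 0.249), and its other arm mir-1981-3p had -0.28 (FDR = 0.220). Mir-130a-3p (chr2:84741115-84741178, minus strand), which is linked to angiogenesis, was between 20.3 and 43.8 CPM in wt, 39.9 and 54.7 CPM in AGAT-/- and 38.5 and 62.4 CPM in AGAT-/-hArg mice. It passed only when both knockout groups were pooled (log2 0.76, FDR = 0.0361), with 0.70 (FDR = 0.166) and 0.82 (FDR = 0.0558) in the separate groups. Its other arm, mir-130a-5p, had 1.01 (FDR = 0.0731) and passed in AGAT-/- mice alone (1.27, FDR = 0.0138). The pooled call of mir-1981-5p held in 6 of the 15 fits without 1 mouse and was lost without wt mouse 1, 4 or 5, AGAT-/- mouse 6, 8 or 9 or AGAT-/-hArg mouse 11, 12 or 15 (FDR up to 0.136). That of mir-130a-3p held in 9 and was lost without wt mouse 2, 3, 4 or 5 or AGAT-/-hArg mouse 11 or 15 (FDR up to 0.116).

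Whether the knockout groups differed from each other was tested directly. Of the 647 miRNAs, 4 (0.618%) passed in AGAT-/-hArg against AGAT-/- mice, and 0 of the 15 genotype miRNAs was among them with edgeR, DESeq2 or limma-voom. Before adjustment, 1 of the 15 had a p below 0.05. It was mir-298-5p, whose log2 difference between AGAT-/-hArg and AGAT-/- mice was -0.47 (95% interval -0.82 to -0.11, FDR = 0.415, edgeR). Its call depends on the filter, as it passed when each miRNA with at least 1 read was tested (-0.45, FDR = 0.0455). For the other 14 the interval of the difference included 0. These intervals leave room for differences: for mir-215-5p the interval ran from -0.10 to 0.27 around 0.08, for mir-31-5p from -0.31 to 0.07 around -0.12, for mir-499-5p from -0.14 to 0.25 around 0.05, and for mir-125b-2-3p from -0.17 to 0.12 around -0.02. For the less abundant mir-470-5p it ran from -0.93 to 0.21, for mir-881-3p from -1.23 to 0.16 and for mir-5119-3p from -1.35 to 2.05. Mir-1983-3p went further down in AGAT-/-hArg mice, with a difference of -0.36 (95% interval -0.74 to 0.03). In 11 of the 15 the change against wt mice was smaller in AGAT-/-hArg than in AGAT-/- mice, a count without a test.

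The 4 miRNAs that did differ between the knockout groups had no change against wt mice within lane 8 that passed. Mir-378b-3p was between 988 and 1156 CPM in wt mice and between 983 and 1130 CPM in AGAT-/- mice, but between 3978 and 4577 CPM in AGAT-/-hArg mice. Mir-3969-5p was between 328 and 441 CPM in wt and 304 and 459 CPM in AGAT-/- mice, and between 0 and 12.8 CPM in AGAT-/-hArg mice. Mir-101c-3p was between 1493 and 1847 CPM in wt, 1444 and 1923 CPM in AGAT-/- and 973 and 1313 CPM in AGAT-/-hArg mice. Mir-3962-3p had 28 reads in wt and 25 in AGAT-/- libraries and is at 0 in the 5 AGAT-/-hArg libraries, where 3 reads would be 4.93 to 7.69 CPM. For mir-378b-3p, mir-3969-5p and mir-101c-3p the pooled log2 fold changes of 1.29, -0.88 and -0.17 turned to -0.0424, 0.0801 and 0.0718 with lane 8 libraries only. None of the 4 passed in the pooled comparison (FDR = 0.0723, 0.711, 0.737 and 0.439). The part of the lane in these values was not tested, as each AGAT-/-hArg library is on lane 2.

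Mir-378b-3p and mir-378d-5p, 2 members of the mir-378 group, share a run of 14 bases. With mir-378a-3p and mir-378c-5p, the group summed to between 655488 and 840250 CPM per library. These CPM are scaled by TMM and are not shares of the reads. The sequences of mir-378b-3p and mir-378d-5p are printed here because reads may be split between such rows.
mir-378b-3p: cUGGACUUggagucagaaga
mir-378d-5p: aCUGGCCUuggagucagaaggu
Mir-378d-5p was between 73055 and 94111 CPM in wt, 73573 and 80991 CPM in AGAT-/- and 62200 and 75587 CPM in AGAT-/-hArg mice. It passed in AGAT-/-hArg mice (log2 -0.27, FDR = 0.00808) but not in AGAT-/- mice (-0.06, FDR = 0.857). Mir-3966-5p likewise passed in AGAT-/-hArg mice alone (-0.66, FDR = 0.00149, against -0.18, FDR = 0.670), and mir-1966-3p in AGAT-/- mice alone (1.66, FDR = 0.0170, against 0.33, FDR = 0.882). Tested directly, these 3 did not differ between the knockout groups at an FDR of 0.05 (FDR = 0.163, 0.0955 and 0.160).

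Within lane 8, without the AGAT-/-hArg libraries, 12 miRNAs passed, 10 of them among the 15. The 4 miRNAs of the X cluster were among these, with mir-31-5p, mir-298-5p, mir-7688-5p and the 3 that were lower in both groups. In this smaller fit mir-499-5p (FDR = 0.0648), mir-125b-2-3p, mir-130a-3p, mir-1981-5p and mir-210-5p did not pass. With the AGAT-/-hArg libraries as the only knockout mice, 17 passed, of which 9 were among the 15. They were the 9 that passed in both groups. In the pooled comparison, mir-31-5p, mir-470-5p, mir-871-3p and the 3 lower miRNAs mir-215-5p, mir-1983-3p and mir-5119-3p passed in every fit that tested them, including the 15 fits without 1 mouse each. When the fit took account of animal numbers, these 6 were the ones that still passed and the other 9 did not, with FDRs of 0.0515 for mir-881-3p, 0.0544 for mir-499-5p and mir-130a-3p, 0.0550 for mir-871-5p, 0.0925 for mir-125b-2-3p, 0.119 for mir-1981-5p, 0.205 for mir-210-5p, 0.337 for mir-298-5p and 0.427 for mir-7688-5p. In that fit the log2 fold changes of mir-298-5p and mir-7688-5p were 0.40 and 0.46, against 0.83 and 0.77 without the covariate. The animal numbers run in part with the groups, as 4 of 5 AGAT-/- and 3 of 5 AGAT-/-hArg mice have a number above those of all wt mice, so this covariate and the genotype cannot be fully told apart.

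**Figure D4:**
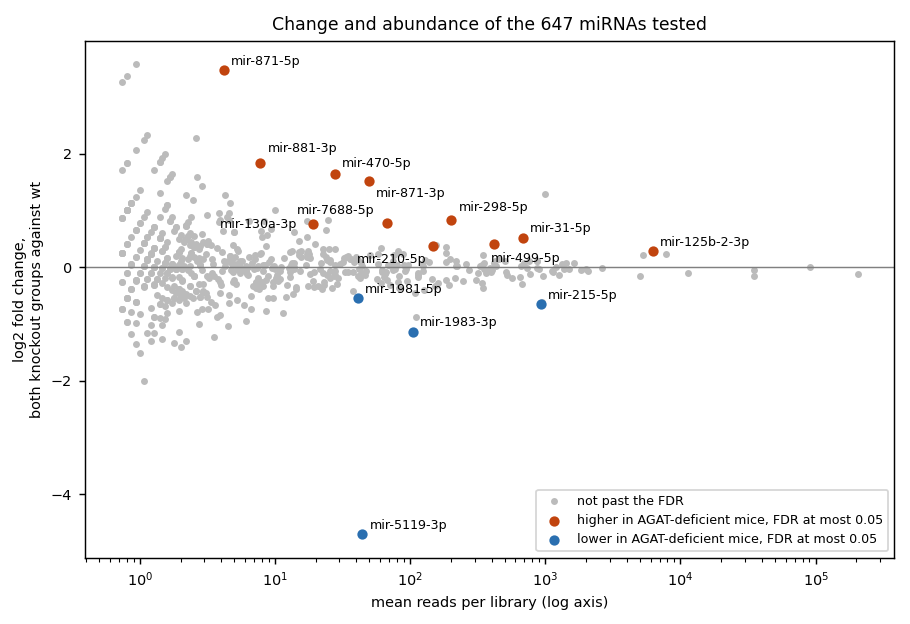
Log2 fold change of AGAT-deficient against wt mice (y axis) and mean reads per library (log x axis) of the 647 miRNAs tested; coloured points have an FDR of at most 0.05. The 15 coloured points range from -4.70 to 3.47, with mir-871-5p and mir-881-3p as the only ones below a mean of 10 reads.

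The number of reads set which changes could be seen. For the 296 tested miRNAs with a mean of at most 3 reads per library, the 95% interval of the log2 fold change reached a median of 1.36 to either side, and none of them passed. This fell to 0.40 for the 135 miRNAs with 10 to 100 reads, of which 6 passed, and to 0.20 for the 70 with 100 to 1000 reads, of which 6 passed as well. At most 1 of the 22 miRNAs above 1000 reads passed, mir-125b-2-3p. Changes such as those of mir-31-5p or mir-499-5p would not have been detectable in most of the tested miRNAs.

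The groups of miRNAs examined beside the 15 showed few changes. Of the muscle miRNAs, 9 of 18 rows could be tested, and mir-499-5p was the 1 that passed, with a median log2 fold change of 0.02 for the group. Mir-133a-1-5p and mir-133a-2-5p had a log2 fold change of 0.02 each, mir-208a-5p -0.13 (FDR = 0.826), mir-1a-1-5p -0.08 (FDR = 0.966) and mir-1a-2-5p 0.67 on 139 reads (FDR = 0.328). In the let-7 and mir-98 family none of 9 tested rows passed, and mir-98-3p was closest with -0.37 (FDR = 0.0808). Of the miRNAs linked to fibrosis, mir-21a-5p of fibroblasts had -0.37 (FDR = 0.0981), from 216 ± 10.1 CPM in wt to 167 ± 22.9 CPM in AGAT-deficient mice (SD, n = 5 and 10), and none of the 5 tested rows passed. The same holds for 11 rows of the mir-322 and mir-503 cluster, 9 of mir-17-92 and its paralogues, 7 of the mir-15 and mir-16 family, 5 of mir-30 and 33 of the imprinted Dlk1-Dio3 locus, whose median log2 fold changes lay between -0.12 and 0.25. At the FDR used, 2.32% of all tested miRNAs passed, which for groups of this size is less than 1 row each.

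**Figure D5:**
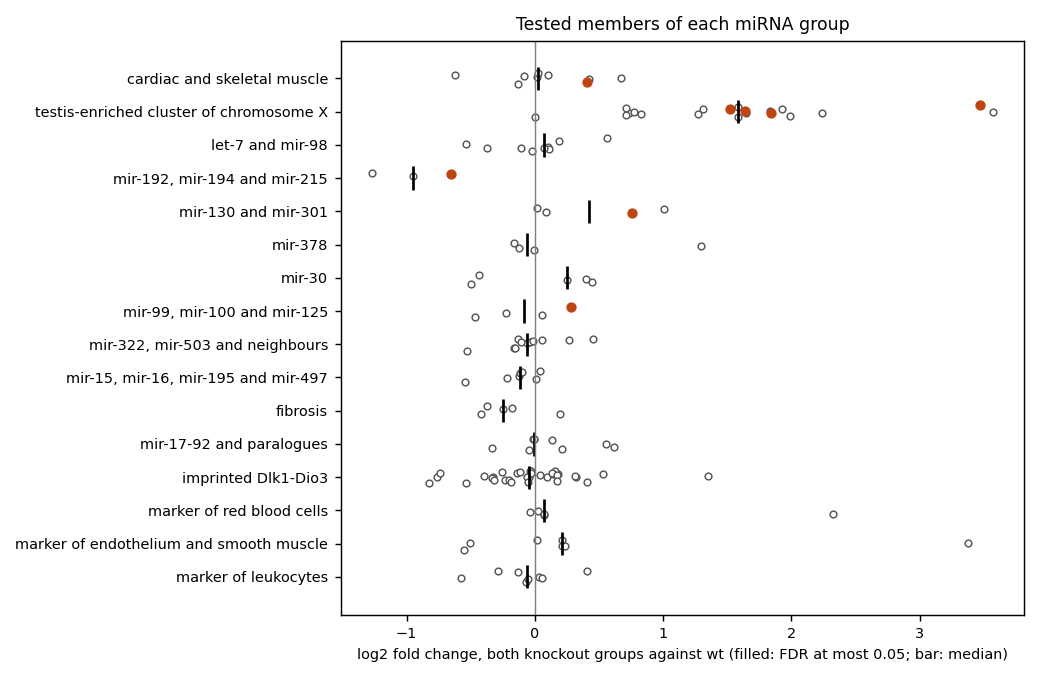
Log2 fold change of AGAT-deficient against wt mice (x axis) for the tested rows of each miRNA group with at least 3 of them (y axis); each point is a row, filled points have an FDR of at most 0.05 and the black bar is the median of the group. The medians furthest from 0 are those of the chromosome X cluster at 1.58, mir-192, mir-194 and mir-215 at -0.95 and mir-130 and mir-301 at 0.43. Each of these groups holds a row past the FDR as well as rows with few reads. The groups were chosen with earlier results of these data known, so the medians are descriptions only.

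Markers of other cells of the LV were compared to see whether cell composition moved with the genotype, where fewer cells and less RNA per cell cannot be told apart. Of the red blood cell markers none of 5 tested rows passed, and their sum was 6542 to 7937 CPM in wt, 6411 to 8046 CPM in AGAT-/- and 6416 to 8009 CPM in AGAT-/-hArg mice. The rows of mir-451a and mir-144-3p are listed at 0, so this sum rests on mir-144-5p and, for the larger part, on mir-486. Whether mir-486 in the LV comes from red blood cells was not tested. Mir-144-5p alone changed by -0.04 on the log2 scale (FDR = 0.966, edgeR). Leukocyte markers, led by mir-146a-5p and mir-155-5p, gave 6310 to 7856, 5967 to 8250 and 6676 to 8007 CPM, with none of 8 passing, while mir-223-3p, mir-150-5p and mir-142a-5p are listed at 0. Endothelial and smooth muscle markers, of which none of 7 passed, summed to 9572 to 12018 CPM in wt, 10619 to 14116 CPM in AGAT-/- and 9978 to 16905 CPM in AGAT-/-hArg mice. Almost all of it is mir-145a-3p, with a log2 fold change of 0.21 (FDR = 0.397), as mir-143-3p is at 0. The rows of mir-126 add little to this sum, which therefore does not follow them. Here mir-126a-3p had -0.50 on 100 reads (FDR = 0.611), mir-126b-3p -0.55 on 12 (FDR = 0.863) and mir-126a-5p 3.38 on 12 (FDR = 0.339). Mir-122 of liver had 5 reads in all libraries, and mir-128-1-5p, the neuronal marker tested, changed by -0.16 (FDR = 0.826). The part of cell composition in the 15 changes was not tested.

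The rows that the study itself lists as altered in AGAT-/- mice overlap with these results by construction, since they were chosen on the same wt and AGAT-/- mice. Of 29 such rows in the table, 11 are listed at 0 in all libraries, let-7i-5p, mir-148a-3p, mir-30b-5p and mir-210-3p among them, and 2 had 1 read, so these counts hold no values for them to compare. The other 16 could be tested, and 12 of them passed in the pooled comparison, 9 higher and 3 lower. In AGAT-/-hArg mice, which did not enter that choice except through the shared wt mice, 5 passed as higher and 3 as lower, where 1.08% of all tested miRNAs were higher and 1.39% lower. The listed rows that did not pass when pooled were mir-130a-5p, mir-182-5p (log2 0.36, FDR = 0.220), mir-30d-5p (0.40, FDR = 0.439) and mir-100-5p (-0.22, FDR = 0.863). Mir-130a-3p, which has the lowest p-value in the study's list, passed here when pooled but not in AGAT-/- mice alone (log2 0.70).

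By position, the 15 miRNAs come from several chromosomes. Gatm itself lies on chromosome 2 (chr2:122594467-122611303, minus strand). Of the 116 tested rows from this chromosome 3 passed (2.59%, near the 2.32% of all tested rows), from the precursors of mir-499, mir-130a and mir-298, which lie 33.0, 37.9 and 51.7 Mb away. Within 10 Mb of Gatm, mir-3473g-3p, mir-674-3p and mir-674-5p were tested, and none passed (mir-674-5p 0.22, FDR = 0.359). Of the 72 tested rows from chromosome X 4 passed (5.56%), all in the cluster described above.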

How the data were processed

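MiRNA was sequenced from LV tissue of 15 mice, 5 per group, on an Illumina sequencer, from libraries made with the TruSeq Small RNA kit. The authors mapped reads to murine miRNAs of miRBase with the CLC Genomics Workbench and deposited whole-number counts of reads per mature arm, without normalization. The submitters' processing notes name the build GRCm38. The miRBase release, the mismatches allowed and the handling of reads with several matches are not given in the sources used here. All 15 columns were assigned by their labels.

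A row was tested when its reads over all 15 libraries came to more than 10. Tests used edgeR 4.0.16 (R 4.3.3; TMM, glmQLFit, glmQLFTest), once with 2 genotypes and once with 3 groups, and p-values were adjusted by Benjamini-Hochberg over all 647 rows. A log2 CPM uses a prior count of 1. As alternatives, DESeq2 1.42.0, limma-voom (limma 3.58.1), DESeq2 size factors, total counts, other filters, covariates for lane and animal number, an FDR of 0.01 and fits without 1 mouse were run. Fits were also run on simulated counts, with changes larger than most of those of the 15 miRNAs and without a lane effect. That run does not speak to smaller changes or to the lane. Coordinates are from GENCODE M21 and sequences from RefSeq. Named miRNAs are those passing in any of the comparisons, their other arms, up to 4 per group with the lowest p, the most abundant rows and clusters within 10 kb. The miRNA groups and comparisons were chosen with earlier results of these data known. No libraries of 1 group agreed within sampling noise. P-values measure the spread between mice.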

Additional observations from a re-analysis of the deposited data

Results flagged for a closer look

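In groups of 5 mice, a mouse far from the other 4 was looked for among 23 miRNAs in 3 groups, by setting the gap to its nearest neighbour against the whole range of the group. Of the 69 groups, 7 were flagged, where chance flags about 1 in 20. Mir-5119-3p had such a mouse in each group. In wt mice, mouse 5 was at 695 CPM (282 reads) and the others at 117 to 255 CPM. In AGAT-/- mice, mouse 8 was at 30.1 CPM (11 reads) and the others at 2.08 to 9.64 CPM. In AGAT-/-hArg mice, mouse 11 was at 37.4 CPM (18 reads) and the others at 2.56 to 7.97 CPM. In all 3 groups the deviating mouse was the highest, and with each of them left out in turn mir-5119-3p still passed.

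The other deviating mice were wt mouse 2 for mir-210-5p (258 CPM, the others 271 to 276 CPM), wt mouse 4 for mir-101c-3p (1850 CPM), AGAT-/- mouse 9 for mir-378d-5p (73600 CPM) and wt mouse 5 for mir-3969-5p (441 CPM). For mir-210-5p the wt libraries held 107 to 130 reads, and the gap of wt mouse 2 lies within counting error. The wt SD of 6.94 CPM is itself smaller than counting error on so few reads. The narrow wt range is therefore no guide to the spread between mice.

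Between AGAT-/-hArg and AGAT-/- mice, which share their genotype and differ in homoarginine and lane, 4 miRNAs differed (edgeR). The log2 differences were 2.00 for mir-378b-3p (FDR = 4.00e-17), -5.48 for mir-3969-5p (FDR = 4.76e-16), -0.565 for mir-101c-3p (FDR = 0.00168) and -5.37 for mir-3962-3p (FDR = 0.00657). None of the 4 passed in AGAT-/- against wt mice within lane 8, so no difference in the effect of the genotype is shown. The value of mir-3962-3p is fitted against libraries at 0 and is no bound. Since lane and homoarginine coincide, they cannot be told apart.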

How the results depend on the processing

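No paired analysis was possible because the groups share no mouse numbers. In the pooled comparison, between 10 and 20 miRNAs passed under the 16 other settings and between 11 and 16 without 1 mouse, and those passing in both groups numbered 6 to 13 and 7 to 11. With the animal number, which runs in part with the groups, as a covariate, 10 passed, 6 of them among the 15. Without single mice, the pooled calls of mir-130a-3p, mir-1981-5p, mir-210-5p and mir-7688-5p were lost in 6, 9, 8 and 10 of the 15 fits (FDR up to 0.116, 0.136, 0.116 and 0.152), and those of the other 11 in none. AGAT-/- against wt mice gave 15 calls, 8 with more than 10 reads in every library, 9 at an FDR of 0.01 and 11 to 16 without 1 mouse. AGAT-/-hArg against wt mice gave 16 (7 higher, 9 lower), 25 with total counts (17 higher, 8 lower), 28 with at least 1 read and 14 to 22 without 1 mouse. Total counts moved the median of all miRNAs to 0.09 when pooled and 0.12 in AGAT-/-hArg mice. AGAT-/-hArg against AGAT-/- mice gave 4, 7 with limma-voom or at least 1 read, and 4 to 5 without 1 mouse. The pooled log2 fold changes of mir-101c-3p, mir-378b-3p and mir-3969-5p turned to 0.0879, -0.0278 and 0.0958 with lane as a covariate and to 0.0718, -0.0424 and 0.0801 with lane 8 libraries only. Lane 2 holds the AGAT-/-hArg libraries alone. The fit with lane therefore equals the contrast of AGAT-/- against wt mice in the 3-group fit and is no further adjustment. Analyses of lane 8 alone and without untreated AGAT-/- libraries were chosen after seeing the data. The cause of these shifts was not tested.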
